A study of Mus musculus with 8 samples.

Results

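The class I helix-loop-helix factors, or E proteins, Tcf3, Tcf4 and Tcf12 and their inhibitors Id1, Id2, Id3 and Id4 were followed in Paneth cells sorted from the mouse small intestine. These 7 genes of the 53801 in the count table were chosen from their names, and with their levels in knockout and control libraries already known, so that the difference between the genotypes is a description for them, and how they stood in the fits across all genes is not evidence of it. Each of the 7 passed the filter on low counts, which left 13439 genes. Tcf4 is here the E protein gene (identifier ENSMUSG00000053477) and not Tcf7l2, the Wnt effector that also goes by the name Tcf4.

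RNA was sequenced from 4 control mice (Mll1+/-) and 4 knockout mice (Mll1-/-), and each library is named by its genotype and a number. Both genotypes carried Lgr5-EGFP-IRES-CreERT2, a knock-in that expresses a tamoxifen-inducible Cre recombinase in Lgr5+ stem cells, and a β-catenin gain-of-function allele (β-cat GOF) that loses exon 3 upon recombination, so that Wnt signalling was raised in the controls as well. The controls had 1 conditional (flox) allele of the histone methyltransferase gene Mll1 (Kmt2a) and the knockouts had 2. Mutagenesis was induced in young mice a few weeks old with 3 daily injections of 1 mg tamoxifen, and EpCAM+ Cd24+ cells were sorted 10 d later. The Lgr5-driven Cre recombines a mosaic of crypts, and only cells that descend from an induced stem cell, or that express the Cre themselves, lose the alleles. Wild-type mice and mice without β-cat GOF were not part of these libraries, and the methods paragraph on the sorting names the Mll1 alleles without β-cat GOF.

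E proteins bind the E-box of DNA as dimers, either with each other or with tissue-restricted basic helix-loop-helix (bHLH) factors such as Atoh1, the factor that specifies the secretory lineage of the gut. Id proteins have the helix-loop-helix but lack the basic region that contacts DNA, and so hold E proteins in dimers that cannot bind. Id genes are known targets of Bmp signalling, and in the intestine the balance of E and Id proteins is studied for its part in stem cell identity and in the choice between absorptive and secretory fates.

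The DNA just before RefSeq starts of the genes is shown first, because an E-box there is the letter sequence that the proteins themselves recognise. From RefSeq promoter tables (build GRCm38.p6), 7 windows for 5 of the 7 genes were searched. Each ran from 250 bases before to 50 bases after a start. Tcf4 and Id1 were not among the genes searched. The E-box (CANNTG, the same on both strands) occurred in 72.3% of 32851 windows of this length. The letters GGCGCC, bound by Smad proteins in Id promoters, occurred in 11.9% of windows, and the Wnt effector motif CTTTGAT, searched on both strands, in 3.73%. Each motif was counted on its own, so that an E-box may share an end base with GGCGCC, which is not the case in the stretches shown. The stretches below lie outside annotated exons and end at or before the start site, and capitals mark an E-box or GGCGCC.
Tcf3, chr10:80433648-80433885, minus strand: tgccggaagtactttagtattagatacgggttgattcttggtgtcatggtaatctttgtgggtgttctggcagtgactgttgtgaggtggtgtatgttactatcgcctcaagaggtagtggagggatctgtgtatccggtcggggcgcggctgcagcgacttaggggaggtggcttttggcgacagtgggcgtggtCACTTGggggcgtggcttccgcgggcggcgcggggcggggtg
Id2, chr12:25096254-25096342, minus strand: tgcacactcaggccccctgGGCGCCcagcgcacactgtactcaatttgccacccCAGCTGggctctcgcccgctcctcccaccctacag
Id4, chr13:48260866-48261115, plus strand: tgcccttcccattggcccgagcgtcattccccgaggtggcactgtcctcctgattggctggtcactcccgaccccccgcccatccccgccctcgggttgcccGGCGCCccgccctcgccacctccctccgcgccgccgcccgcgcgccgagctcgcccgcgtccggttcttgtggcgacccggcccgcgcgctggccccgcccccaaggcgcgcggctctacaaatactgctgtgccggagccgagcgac

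The Tcf3 stretch of 238 bases held 1 E-box, CACTTG, 54 bases before the start. The Id2 start is an internal one, and its stretch lies within the gene's span in the count table. It had 1 E-box at 196 bases and GGCGCC at 231 bases before this start, both inside the 89 bases shown. Id4 had GGCGCC at 148 bases before its start and no E-box in its window. The windows of Tcf12 held 1, 2 and 1 E-boxes, the window of Id3 held none of the 3 motifs, and CTTTGAT was found in none of the 7 windows. An E-box is in most windows of this length, so its presence in 5 of the 7 windows sets these genes little apart, and these matches are a description of letters and not of binding.

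Library totals lay between 13037832 and 14380240 counts. Levels are given as normalised CPM, which are counts divided by a library size adjusted by the trimmed mean of M-values (TMM) and scaled to CPM, and 3 counts correspond to between 0.173 and 0.353 normalised CPM. Knockout 3 stood apart from the other libraries, with counts in 19662 genes against 22623 to 26074 and a TMM factor of 0.632 against 0.821 to 1.34. By the runs of their label numbers, controls 1 and 2 and knockouts 1 and 2 form library set 1 and the other 4 libraries form library set 2. Sex also differed within the genotypes: counts of the Y-linked genes were between 881 and 1375 in control 3 and knockouts 1 and 2, 148 in knockout 3 (which also had 1037 counts of Xist), and at most 22 in the other libraries. The targeted gene Kmt2a had 719, 469, 268 and 284 counts in controls 1 to 4 and 523, 447, 328 and 468 in knockouts 1 to 4. These totals overlapped, and a count over the whole gene does not show whether the deleted exons are missing, so the labels could not be checked in this way. The study also stained crypts for Mll1 protein, and reports that crypt cells of the knockouts, Paneth cells included, lacked it when cells were sorted. This staining was not analysed here. Each of the 10 Paneth markers passed the filter, and their summed level was 275562 to 547221 normalised CPM in controls and 260169 to 773294 in knockouts, highest in knockout 3.

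Tcf4 was about 2-fold higher in the knockouts, with every knockout above every control. The level in controls 1 to 4 was 28.5, 26.0, 31.1 and 28.5 normalised CPM, and in knockouts 1 to 4 it was 62.8, 73.0, 51.5 and 43.8. The controls lay close together, the knockouts spread more, and the groups did not overlap. The means were 28.5 ± 2.09 and 57.8 ± 12.8 normalised CPM (SD, n = 4), with a fitted log2 fold change of 1.02 with a standard error of 0.19. This was larger than 96.4% of the signed log2 fold changes of the 13439 genes. Complete separation with the knockouts higher was seen for 348 genes, or 2.59% of those tested, and for 1 of the 7 genes here, and separation in either direction for 4.52%. As the genes were chosen with this contrast known, nothing is read from these shares.

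Tcf12, the HEB gene, and Tcf3, which encodes E12 and E47, differed less. In controls Tcf12 was at 58.3, 44.9, 92.2 and 71.8 normalised CPM, and in knockouts at 82.0, 95.0, 76.8 and 85.2. Control 3 reached into the range of the knockouts, which were close to each other. The means were 66.8 ± 20.2 and 84.8 ± 7.66 normalised CPM, with a log2 fold change of 0.34 (SE 0.21). For Tcf3 the controls were at 9.18, 7.32, 5.13 and 7.68 normalised CPM and the knockouts at 8.46, 10.5, 7.07 and 13.1. These ranges overlapped in knockouts 1 and 3, and the log2 fold change was 0.42 (SE 0.27), from a mean of 7.33 ± 1.67 to 9.79 ± 2.62 normalised CPM.

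Id3 was at 15.2, 19.1, 16.9 and 23.0 normalised CPM in controls 1 to 4 and at 48.1, 45.5, 10.5 and 30.0 in knockouts 1 to 4. Knockouts 1, 2 and 4 were above every control and knockout 3 was below every control. The means were 18.6 ± 3.38 and 33.5 ± 17.3 normalised CPM, and the log2 fold change was 0.86 (SE 0.37), or 1.15 (SE 0.20) without knockout 3. Id2 had nearly the same level in every control, 27.5, 26.1, 27.5 and 26.9 normalised CPM, against 54.7, 57.7, 8.37 and 27.1 in the knockouts. Its knockouts thus lay above, among and below the controls. The coefficient of variation was 2.47% over the controls and 63.6% over the knockouts (36.3% without knockout 3), and the log2 fold change was 0.46 (SE 0.43), or 0.78 (SE 0.22) without knockout 3.

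Id1 was the 1 gene of the 7 with a lower mean in the knockouts. It was at 18.0, 25.5, 12.8 and 16.5 normalised CPM in controls and at 20.5, 17.6, 3.06 and 16.1 in knockouts. Knockouts 1, 2 and 4 lay within the range of the controls. The log2 fold change was -0.33 (SE 0.43) over all libraries and -0.01 (SE 0.22) without knockout 3. Id4 was scarce, with 20, 5, 38 and 3 counts in controls and 29, 116, 11 and 12 in knockouts, which is 1.26, 0.398, 3.42 and 0.238 against 1.73, 6.68, 1.30 and 0.730 normalised CPM. The groups overlapped widely and control 4 was at the limit of 3 counts. The log2 fold change was 1.00 (SE 0.84), and single libraries set it, with -0.07 (SE 0.83) without knockout 2 and 2.02 (SE 0.87) without control 3. Id4 shares 4.44% of its exon bases with Gm49291 on the opposite strand, and the strand setting of the counting is not given in the sources used here; the other 6 genes share no exon bases with another gene.

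**Figure D1:**
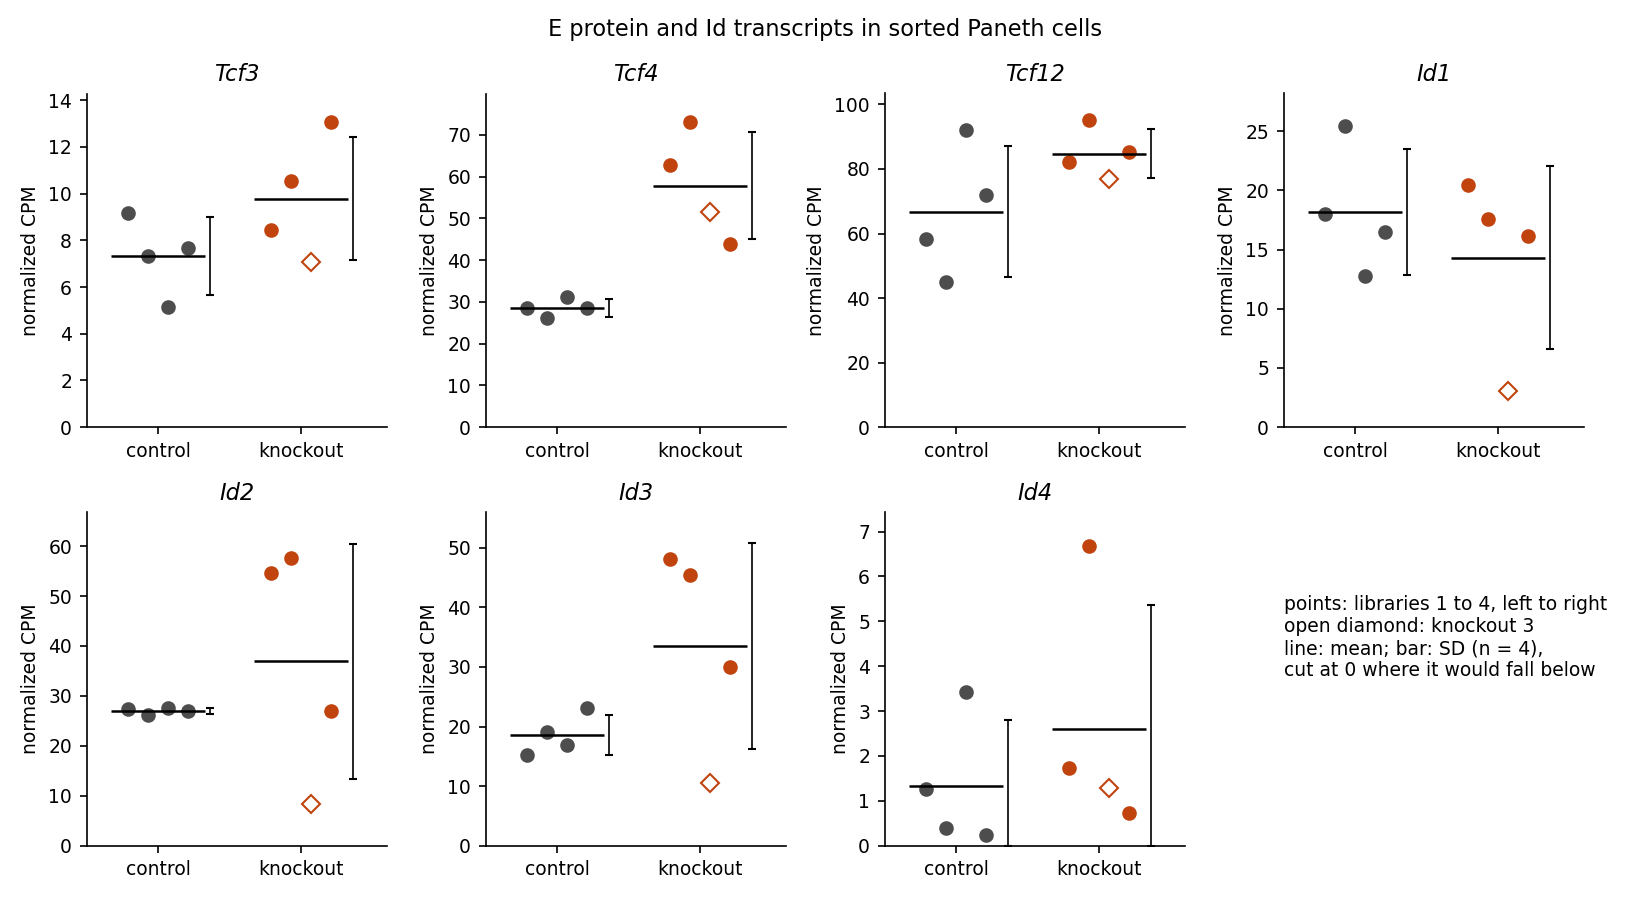
Level of each E protein and Id gene in every library, in normalised CPM on axes that start at 0, with controls in grey and knockouts in orange; lines are means and bars SDs of 4 libraries, cut at 0. The knockouts of Tcf4 sit between 43.8 and 73.0, all above the controls, while knockout 3 (open diamond) is the lowest library for Id1, Id2 and Id3.

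A gene was called where its adjusted p was 0.05 or lower and its log2 fold change reached 0.5 in either direction. By edgeR's quasi-likelihood test this held for 25 of 13439 genes (0.186%), 21 higher and 4 lower. Of the 7 genes here 0 were called, while 924 of all tested genes (6.88%), 2 of the 7 among them, had an unadjusted p of at most 0.05. At a false discovery rate of 10% with no limit on the fold change, 38 genes (0.283%) passed, Tcf4 among them. DESeq2's Wald test called 138 genes over all (1.03%) and limma-voom with quality weights 95 (0.707%), and each included 1 of the 7, Tcf4. Without knockout 3 edgeR called 152 genes over all (1.08%), among them Tcf4 and Id3, and both were also among the 290 of 37039 genes called without a filter (0.783%). These calls state how the genes stood in each fit and are not evidence for genes picked on the same contrast.

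Knockout 3 was below the other 7 libraries for Id1, Id2 and Id3, and the mean of the other knockouts was 5.90-, 5.56- and 3.93-fold higher. For Tcf3, Tcf4 and Tcf12 the same ratio was 1.51, 1.16 and 1.14, and knockout 3 was not the lowest library. Id4 in knockout 3, at 1.30 normalised CPM, also lay among the other libraries. Knockout 3 was highest in the summed immediate early genes, at 848 normalised CPM against 333 to 611 in controls. Between the genotypes this list had sums of 532 to 848 in knockouts and 8 of 9 genes with a positive log2 fold change (median 0.38). By edgeR 3 had an unadjusted p of at most 0.05 (6.88% over all genes), Atf3 at 1.15, Dusp1 at 0.63 and Ier2 at 0.50. The part of this list in the Tcf4 and Id levels was not tested. Knockout 3 was the lowest of the 8 libraries in each of the 6 stem cell markers, from Olfm4, at 103 against 449 to 1123 in controls, and Slc12a2, at 62.9 against 132 to 254, to Lgr5, at 37.3 against 43.0 to 51.0, and Smoc2, at 48.0 against 48.5 to 61.7. The part of cell make-up, RNA quality or depth in its Id levels was not tested. In bulk RNA, fewer cells of a type and less RNA per cell cannot be told apart.

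**Figure D2:**
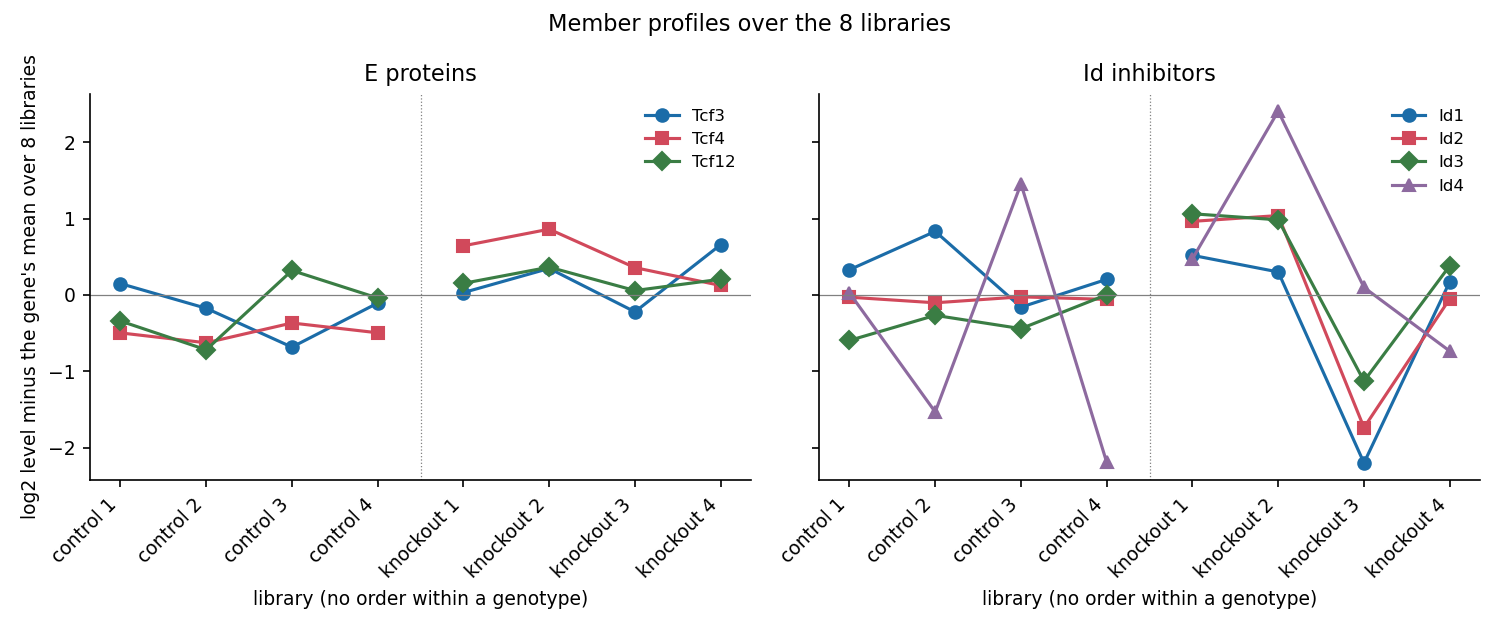
Log2 level of each gene minus its own mean over the 8 libraries, for E proteins on the left and Id genes on the right; libraries have no order within a genotype. Id1, Id2 and Id3 each have their lowest point in knockout 3, which is not so for Tcf3, Tcf4 and Tcf12.

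The profiles over the 8 libraries were compared by the root mean square (RMS) difference of centred log2 levels, where a smaller value is a closer match. The closest pairs were Id2 with Id3 at 0.37, Tcf4 with Tcf12 at 0.40 and Tcf3 with Tcf12 at 0.48. Id1 was nearest to Id2, at 0.51. Tcf4 and Id1 were 1.13 apart. Among all tested genes the profile most like Tcf4 was that of Dsg2, which encodes a desmosomal cadherin, at 0.18, followed by Gm15452 (0.18), Fam43a (0.22), Dzip3 (0.22) and Hat1 (0.23), where the median gene was 0.71 away. Nearest to Id1 were Mlip (0.18), Cnot9 (0.23), Rbpms (0.24), Tfdp2 (0.25) and Taf7 (0.25), with a median of 0.97. Nearest to Id3 were Rel (0.19), Gm4204 (0.25), Gm4739 (0.26), Znrf3 (0.28) and Ets2 (0.28), with a median of 0.86. The points are 8 libraries that share depth and genotype, and predicted genes such as Gm15452 can share reads with near-identical copies.

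The difference between the genotypes was also taken within each of the 2 library sets, which hold 2 controls and 2 knockouts each. The values within a set are differences of mean log2 normalised CPM, not fitted. For Tcf4 the difference was 1.31 in set 1 and 0.67 in set 2. Tcf12 was at 0.79 and -0.01, and Tcf3 at 0.20 and 0.61. The Id genes were at 1.45 and -0.15 for Id3, 1.07 and -0.85 for Id2, -0.17 and -1.03 for Id1, and 2.19 and 0.05 for Id4. Knockout 3 belongs to set 2, and knockouts 1 and 2 of set 1 are both libraries with Y-linked counts while the controls of that set are not, so that genotype and sex cannot be told apart within set 1. The interaction of genotype and library set was called by edgeR for 0 genes over all, with 726 at an unadjusted p of at most 0.05 (3 of the 7), and by DESeq2 for 8. The edgeR adjusted p was at least 0.867 for each of the 7 genes. With the Y-linked level as a covariate the log2 fold change was 0.86 for Tcf4, 0.62 for Tcf3 and 0.26 for Tcf12, and it was 0.74 for Id3, 0.18 for Id2, 0.22 for Id4 and -0.29 for Id1.

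**Figure D3:**
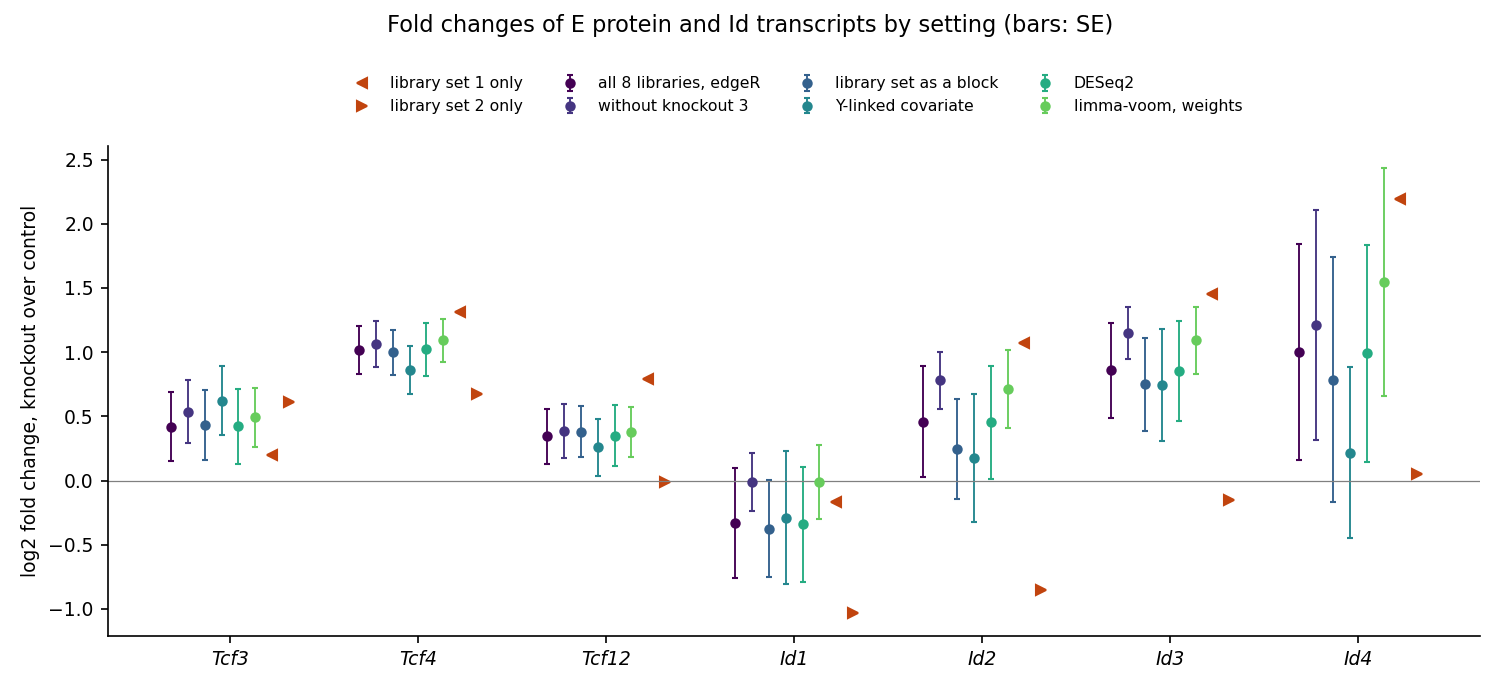
Fitted log2 fold change of each gene, knockout over control, under 6 settings with standard errors as bars, and the difference within each library set as triangles with no error. Tcf4 lies between 0.67 and 1.31 throughout, while Id2 and Id3 change sign between the library sets and Tcf12 is at 0.79 in set 1 and near 0 in set 2.

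Whether the genes differed between the library sets themselves was tested by edgeR with genotype in the fit, which is a contrast that did not choose them. Set 2 over set 1, the log2 difference was -0.81 for Id2 (adjusted p 0.514), -0.76 for Id1 (0.532), -0.50 for Id3 (0.661) and -0.52 for Id4 (0.879). It was 0.27 for Tcf12 (adjusted p 0.668), -0.20 for Tcf4 (0.727) and -0.13 for Tcf3 (0.898). Of the 7, 0 passed, and the smallest unadjusted p by edgeR was 0.0638, for Id2. DESeq2 also called 0 of the 7, and by edgeR 13 genes (0.0967%) passed over all. That background rests on single libraries: the count was 57 without knockout 3, between 0 and 5 without any of the other libraries, and 187 by DESeq2's Wald test.

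Levels between genes were compared per kilobase of summed exon length. Over the 8 libraries the order of mean log2 level was Id3, Id1, Id2, Tcf12, Tcf3, Tcf4 and Id4. Within the genotypes the first 3 places differed, with Id1, Id2 and Id3 in this order in controls and Id3, Id2 and Id1 in knockouts, and the other places were the same. Neighbours over both genotypes were tested by exact two-sided paired permutation over 8 libraries, with p-values adjusted over 6 pairs. Id2 exceeded Tcf12 by 1.28 ± 0.84 (SD) on the log2 scale, in 7 of 8 libraries (exact permutation, adjusted p 0.0312, or 0.0625 when any library but knockout 3 was left out). Tcf12 exceeded Tcf3 by 1.21 ± 0.51 and Tcf4 exceeded Id4 by 2.16 ± 1.23, each in 8 of 8 libraries (exact permutation, adjusted p 0.0234 for both). Id3 and Id1 differed by 0.06 ± 0.77 (0.852), Id1 and Id2 by 0.10 ± 0.55 (0.722), and Tcf3 and Tcf4 by 0.49 ± 0.55 (0.117, with Tcf3 higher in 5 of 8 libraries). These differences did not exceed the spread between libraries by this test, a spread that includes differences between the genotypes. The smallest p that 8 libraries allow before adjustment is 0.0078125.

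The order depends on the length used. Tcf4 has 62 annotated transcripts and 27382 bases of summed exons, of which its longest transcript holds 8577. Per kilobase of the longest transcript Tcf4 was above Tcf3 by 0.74 on the log2 scale in 8 of 8 libraries (exact permutation, adjusted p 0.0156), and Id2 was above Id1 by 0.21. Id2 then exceeded Tcf12 by 0.28, with an adjusted p of 0.367 by the same exact test. Id1 was then the gene next above Tcf12, by 0.07 ± 1.09 on the log2 scale in 6 of 8 libraries (exact permutation, adjusted p 0.820), so that the Id genes were not shown to head the order under this length. Id4 ended it under both lengths.

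**Figure D4:**
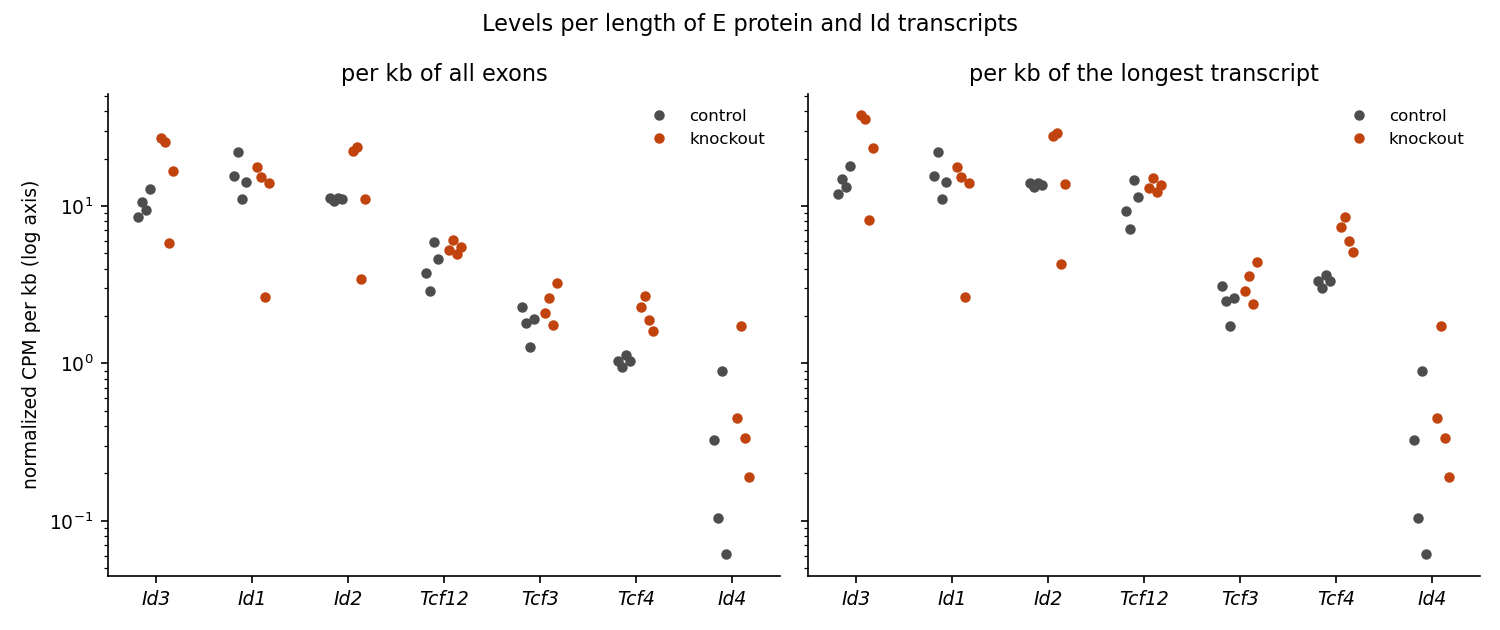
Normalised CPM per kilobase in each library on a log axis, controls in grey and knockouts in orange, per summed exon length on the left and per longest transcript on the right. Id4 is lowest in both and Tcf3 and Tcf4 change places; in knockout 3 Tcf12 (4.95 per kb of exons) lies above Id1 (2.64) and Id2 (3.43).

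Summed per kilobase of exons, the E protein level was 7.07, 5.65, 8.34 and 7.57 normalised CPM per kb in controls and 9.67, 11.4, 8.58 and 10.3 in knockouts. The groups were just separated, by control 3 at 8.34 and knockout 3 at 8.58. The summed Id level per kb was 35.6, 43.4, 32.7 and 38.2 in controls and 67.4, 66.0, 12.3 and 41.9 in knockouts. Knockouts 1 and 2 were above every control and knockout 3 below. The ratio of Id to E level per kb was 5.42 ± 1.6 in controls and 4.56 ± 2.41 in knockouts (SD, n = 4), with overlapping ranges of 3.91 to 7.68 and 1.43 to 6.97. Per kb of the longest transcript the ratio was 2.81 ± 0.844 in controls and 2.40 ± 1.23 in knockouts. The lower knockout means came from knockout 3: without it they were 5.61 ± 1.46 per kb of exons and 2.94 ± 0.689 per kb of the longest transcript (n = 3), above the controls. Transcript ratios of this kind do not measure protein or dimers.

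The make-up of each family was compared as shares of the summed level per kb. Tcf4 gave 14.7 ± 1.47% of the E protein level in controls and 21.1 ± 3.84% in knockouts. Knockout 4, at 15.5%, lay within the control range of 13.6 to 16.8%. Tcf12 gave 59.1 ± 9.10% and 54.8 ± 2.02%, with overlapping ranges. Among the Id genes, Id1 gave 41.3 ± 7.41% in controls and 26.0 ± 5.16% in knockouts, and Id3 27.8 ± 4.55% and 41.5 ± 4.21%. In counts, the ratio of Id1 to Id3, which needs no scaling of libraries, was 0.715 to 1.33 in controls and 0.292 to 0.538 in knockouts. It was lower in every knockout than in every control, knockout 3 included. The same was true of the ratio to Id3 for 982 of 13438 other tested genes (7.31%), and this ratio was picked after its values were seen. Of the 21 ratios between 2 of the 7 genes, 3 did not overlap between the genotypes. The other 2 were Tcf4 to Id1, at 1.02 to 2.44 in controls and 2.72 to 16.8 in knockouts, and Tcf4 to Id2, at 0.997 to 1.13 and 1.15 to 6.15. A ratio to Id1 was higher in every knockout for 2.72% of the other tested genes, and a ratio to Id2 for 0.528%, and nothing is read from this for genes chosen on the same contrast.

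The partners and regulators of the pathway were taken from 4 fixed lists of 85 genes, of which 30 passed the filter. Of these 30, edgeR called 0 (0.186% over all genes) and 5 had an unadjusted p of at most 0.05 (6.88% over all), while DESeq2 (1.03%) and limma-voom (0.707%) each called 1, Neurod1. The median log2 fold change over all 13439 genes was 0.01, with 6844 higher and 6595 lower.

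Of 47 tissue-restricted bHLH partners 7 passed the filter, 2 with a higher and 5 with a lower mean in the knockouts, at a median log2 fold change of -0.82. Most of the others were nearly silent, as 30 of the 47 had at most 3 counts in every library. Neurod1, a factor of enteroendocrine cells, was at 24.8, 22.2, 57.1 and 42.2 normalised CPM in controls and at 12.6, 3.74, 5.42 and 8.46 in knockouts. Every knockout was below every control, and the log2 fold change was -2.27 (SE 0.40, edgeR adjusted p 0.0629). Neurod1 was called by DESeq2 (adjusted p 9.65e-06) and limma-voom (0.0295). EdgeR called it with upper-quartile factors (0.0446), without a filter (4.93e-16), with at least 10 counts in every library (0.0448) and without knockout 1. It was not called by edgeR with DESeq2 size factors (0.0608) or without the 50 most abundant genes in the library sizes (0.0609). Blocking by library set (0.0678), dropping the robust option (0.0642) and the Y-linked covariate (0.134) did not call it either. Leaving out any library but knockout 1 gave 0.0843 to 0.192. The value without a filter is given no weight, as that fit moved standard errors both ways (Id1 0.43 to 0.26, Tcf4 0.19 to 0.22). Neurog3, which starts the enteroendocrine programme, was at 1.26, 1.27, 2.43 and 3.72 against 0.715, 0.346, 0 and 1.03 normalised CPM. These groups were also separated, with a log2 fold change of -1.96 (SE 0.72, edgeR adjusted p 0.577), but at up to 47 counts. Neurod1 shares 7.37% of its exon bases with Cerkl and Neurog3 16.3% with Fam241b.

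Neurod1 and Neurog3 are also among the 9 enteroendocrine markers, and each of the 9 had a negative log2 fold change (median -1.78). By edgeR 0 of them were called and 5 had an unadjusted p of at most 0.05, while DESeq2 called 3 (Chga, Neurod1 and Insm1) and limma-voom 1, where the shares over all genes were 0.186%, 6.88%, 1.03% and 0.707% in this order. Their summed level was 157 to 415 normalised CPM in controls and 26.1 to 188 in knockouts. Chga, a granule protein, averaged 25.6 in controls and 6.45 in knockouts, and Insm1, an endocrine zinc finger factor, 13.5 and 3.91. Among other epithelial markers, 5 of 6 tuft markers (median -0.88, sums of 155 to 521 in controls and 90.8 to 337 in knockouts) and 4 of 5 tested enterocyte markers (median -0.72, sums of 142 to 325 and 89.3 to 235) had a negative log2 fold change, with overlapping sums. By edgeR 0 of the tuft and 2 of the enterocyte markers had an unadjusted p of at most 0.05 (6.88% over all). These 2 were Fabp2 at -1.07, with every knockout below every control, and Sis at -1.44, with overlapping groups. For goblet markers the log2 fold change was positive for 4 of 7 (median 0.10), with sums of 1790 to 4301 and 1669 to 4058. Clca1 was at 0.76, Muc2 at 0.19, Agr2 at 0.17, Spdef at 0.10 and Tff3 at -0.38. The 2 with an unadjusted p of at most 0.05 by edgeR were lower. These were Fcgbp at -2.24 (means of 114 and 24.1) and Zg16 at -5.05 (90.2 and 2.56). Both overlapped between the genotypes, and control 3 raised their control means. It was at 266 for Fcgbp and 304 for Zg16, against 18.0 to 87.7 and 1.51 to 49.6 in the other controls. The part of these cells in the sorted population was not tested.

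Atoh1 was at 35.4, 27.1, 45.3 and 46.6 normalised CPM in controls and 27.6, 38.4, 74.3 and 34.6 in knockouts. Knockout 3 was the highest library and the other knockouts lay among the controls, with a log2 fold change of 0.18 (SE 0.30, edgeR adjusted p 0.974). Bhlha15 (Mist1), a factor of secretory cells, averaged 26.6 ± 5.54 and 18.6 ± 5.62 normalised CPM, at -0.52 (adjusted p 0.724). The stem cell factor Ascl2 averaged 8.25 ± 2.98 and 4.62 ± 1.85, at -0.82 (0.702), where 5 of 6 stem cell markers, Ascl2 included, had a negative log2 fold change (median -0.64). Their sum of 718 to 1527 in controls and 268 to 943 in knockouts was mostly Olfm4, at means of 876 and 406. Of the other stem cell markers, Slc12a2 averaged 184 and 102 with every knockout below every control (log2 fold change -0.85, unadjusted p 0.00903 by edgeR), Cdca7 28.2 and 20.7, Lgr5 47.5 and 48.9, and Smoc2 54.6 and 52.8. The part of stem cells in the Ascl2 level was not tested. Atoh8 and Neurod2 were scarce, with log2 fold changes of 1.02 (0.897) and -1.25 (0.788).

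**Figure D5:**
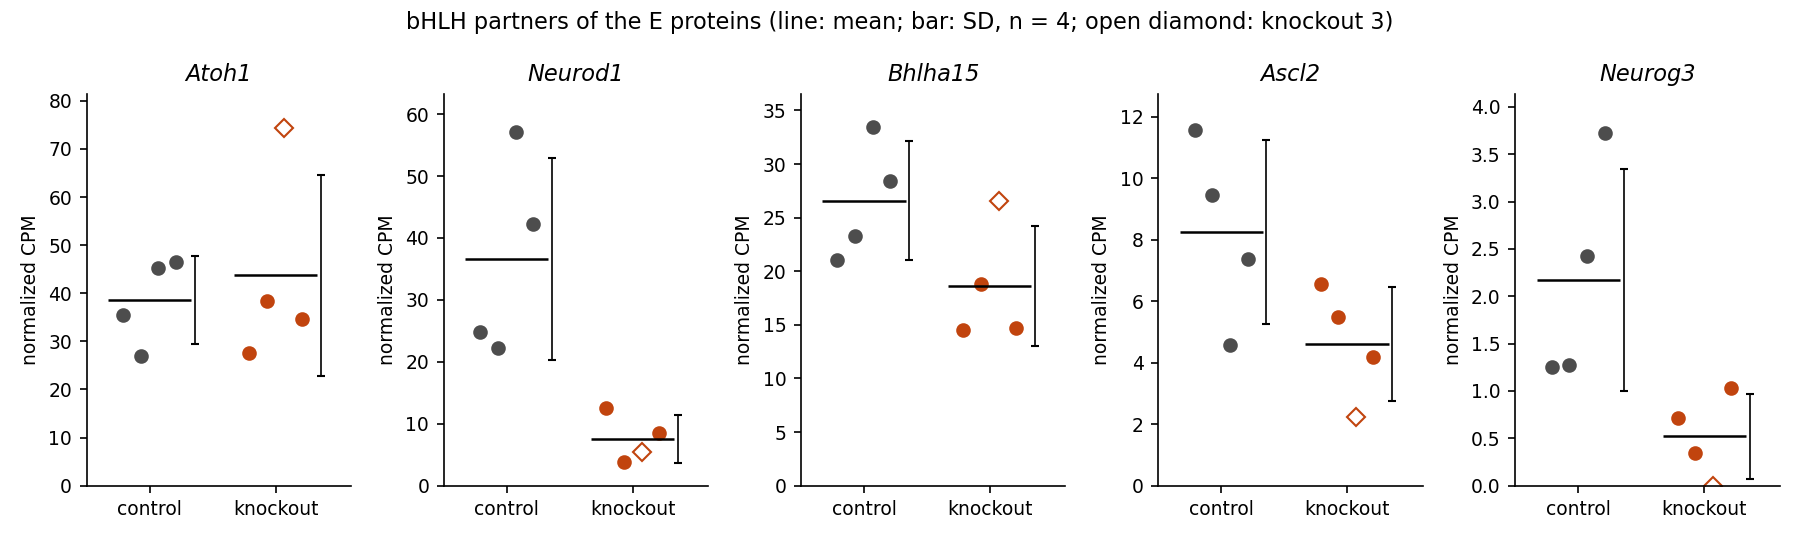
Normalised CPM of 5 bHLH partners in every library on axes that start at 0, with means as lines and SDs of 4 libraries as bars. Neurod1 and Neurog3 are lower in each knockout than in each control, and Atoh1 overlaps, with knockout 3 (open diamond) the highest.

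Of 20 cofactors and Id regulators 12 were tested, with 6 on each side of 0 and a median log2 fold change of 0.00. The ubiquitin ligase Huwe1 averaged 43.4 and 43.0 normalised CPM, the acetyltransferases Crebbp 33.2 and 29.0 and Ep300 18.9 and 19.2, the corepressor Cbfa2t3 31.2 and 32.7, and Ssbp3, which joins LIM-domain complexes, 27.1 and 23.3. Their log2 fold changes lay between -0.22 and 0.06. Runx1t1, a corepressor that binds E proteins, averaged 12.2 ± 4.59 in controls and 5.94 ± 2.99 in knockouts, at -1.03 (SE 0.39, edgeR adjusted p 0.595), with overlapping groups.

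Of 11 Bmp response genes 5 were tested, 3 higher and 2 lower, with a median of 0.38. Smad7, an inhibitor of receptor signalling, was at 0.90 (SE 0.51, edgeR adjusted p 0.829) and Smad6 at 0.38 (0.972). The pseudoreceptor Bambi averaged 58.1 ± 25.9 and 44.8 ± 18.4 normalised CPM, at -0.38 (0.931). Msx1, a homeobox target of Bmp, was at 0.50 (0.966) and Smad9 at -1.33 (0.900). Of 7 cell cycle inhibitors 6 were tested, 2 higher and 4 lower, with a median of -0.25. Cdkn1a (p21), a gene that E proteins activate and Id proteins oppose, averaged 42.8 ± 9.96 and 33.8 ± 10.4 normalised CPM, at -0.34 (0.895). Cdkn1b was at -0.29 (0.881), Cdkn1c at -0.21 (0.982), Cdkn2b at -0.28 (0.976) and Cdkn2c at 0.47 (0.951). None of these tested genes passed in edgeR, DESeq2 or limma-voom, while Msx2, which was below the filter with 0 counts in every knockout, was called by edgeR without a filter. Cdkn1c shares 30.7% of its exon bases with Gm44732.

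The Wnt factors whose older names could be taken for those of E proteins are other genes and were counted apart. Of the 4, edgeR (0.186% over all genes), DESeq2 (1.03%) and limma-voom (0.707%) each called 0. By edgeR 2 had an unadjusted p of at most 0.05 (6.88% over all). Tcf7l2 averaged 50.4 ± 7.95 and 53.6 ± 2.23 normalised CPM, at 0.09 (SE 0.16, edgeR adjusted p 0.979), and Tcf7l1 2.27 and 2.30, at 0.02 (0.997). Tcf7 was at 6.04, 7.0, 3.24 and 6.02 normalised CPM in controls and 19.7, 15.3, 3.89 and 9.80 in knockouts, with knockout 3 alone among the controls. Lef1 was at 2.64, 2.47, 6.39 and 5.07 against 10.5, 8.52, 9.43 and 6.81, with no overlap. Their log2 fold changes were 1.13 (SE 0.43, edgeR adjusted p 0.589) and 1.10 (SE 0.34, 0.450). Lef1 shares 13.7% of its exon bases with Gm43352.

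Markers of cells outside the epithelium were scarce in both genotypes. The summed level was 0.554 to 1.26 normalised CPM in controls and 0.953 to 1.76 in knockouts for 6 fibroblast markers, 4.28 to 6.73 and 4.72 to 6.83 for 7 endothelial, 4.83 to 15.0 and 2.37 to 13.3 for 8 immune, and 3.26 to 5.22 and 2.19 to 4.62 for 5 glial and neuronal markers. The 6 proliferation markers each had a higher mean in the knockouts, with sums of 68.8 to 158 and 83.7 to 216. Their part in the levels of the E protein and Id genes was not tested.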

How the data were processed

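Per the labels and the methods of the study, small pools of sorted Paneth cells were processed by a Smart-seq2 type protocol, which copies polyadenylated RNA and amplifies the cDNA by PCR. Reads were demultiplexed by the authors with bcl2fastq 2.19.1, mapped to mm10 by GSNAP and assigned to Ensembl genes by featureCounts 1.6.3, per the methods and the submitters' processing notes. The deposited values are raw counts per gene and library, without normalisation. PCR copies are not told apart in them, so floors cover counting error only.

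The 92 spike-in rows were left out. Symbols were matched for 53620 of 53801 identifiers, and 97.08% of these had the same span in GENCODE M21 (GRCm38). Groups were taken from the genotype labels. Replicate numbers follow accession order and pair nothing. The labels number separate animals, although control 4 and knockout 4 bear the same number, which was not used, and p-values measure the spread between them. No 2 libraries agreed within sampling noise (smallest chi-square per degree of freedom 12.1).

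Counts were fitted in R 4.3.3 with edgeR 4.0.16 (TMM, robust quasi-likelihood, filterByExpr with a minimum count of 10 and total of 15), and p-values were adjusted by Benjamini-Hochberg over 13439 genes. The standard error of a log2 fold change was taken as its absolute value over the root of F. The study's tool DESeq2 (1.42.0, Wald test) and limma-voom (3.58.1, quality weights) were alternatives. Level order used exact paired sign flips of log2 (count + 0.5) per kilobase. Further alternatives were other size factors, filters and lengths, the library set as a block, a Y-linked covariate, and leaving out each library. Differences within each library set, and library set counts, family sums and coefficients of variation without knockout 3, were added after the data were seen. Scripts were tested on simulated data. The 7 genes and the lists were chosen with earlier results of these data known. Named are the 7 genes, the 5 most abundant tested genes of each list with any at an unadjusted p of at most 0.05, and for Tcf4, Id1 and Id3 the 5 nearest profiles. Neurod2, Cdkn2c, Msx2 and the cell type markers named were added afterwards.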

Additional observations from a re-analysis of the deposited data

Results flagged for a closer look

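Id4 in the knockouts had 1 library far from the others: knockout 2 was at 6.68 normalised CPM and the other knockouts were between 0.730 and 1.73. The gap to the nearest library was 0.832 of the range of the group, just above Dixon's 95% critical value for 4 samples of 0.829. Of 24 groups of 4 libraries tested in this way 1 passed, and chance passes about 1 in 20. The value rests on 116 counts, against 11 to 29 in the other knockouts, and leaving out knockout 2 turned the log2 fold change between the genotypes from 1.00 to -0.07 and the library set difference of Id4 from -0.52 to 0.29.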

How the results depend on the processing

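No paired analysis was possible because the labels of the genotypes share only 1 animal number, replicate numbers given in accession order pair nothing, and the methods, which speak of littermates, do not say which animals share a litter. The number of genes called over all, 25, became 290 without a filter, 13 with at least 10 counts in every library, 138 by DESeq2's Wald test, 95 by limma-voom, 10 with the Y-linked covariate, 38 at a false discovery rate of 10% with no limit on the fold change, and 10 to 152 when each library was left out, with the highest count without knockout 3. Other size factors, robust=FALSE and the library set as a block kept it within 22 to 25. Among the bHLH partners 0 became 1 (Neurod1) with upper-quartile factors, without a filter, with at least 10 counts in every library, by DESeq2, by limma-voom and at 10%, and 0 to 1 when libraries were left out. Among Bmp response genes it became 1 (Msx2, below the usual filter) without a filter, and among the Wnt factors 1 (Tcf7) without a filter and 0 to 1 when libraries were left out (1 without knockout 3). Within single library sets, the log2 fold change was 1.31 and 0.67 for Tcf4, 0.79 and -0.0082 for Tcf12, -0.85 for Id2 in set 2 and -0.15 for Id3 in set 2; leaving out libraries gave 0.88 to 1.13 for Tcf4, 0.19 to 0.54 for Tcf12, 0.16 to 0.78 for Id2, 0.65 to 1.15 for Id3 and -0.07 to 2.02 for Id4, lowest without knockout 2, and it was 0.22 with the Y-linked covariate. In the order of levels, the longest transcript turned Id1 over Id2 to -0.21 and Tcf3 over Tcf4 to -0.74 and took Id2 over Tcf12 to 0.28. Leaving out libraries gave -0.095 to 0.22 for Id3 over Id1, -0.032 to 0.21 for Id1 over Id2 and 1.16 to 1.53 for Id2 over Tcf12, with an adjusted p of 0.0625 in 7 of 8 cases. The library set difference ranged from -0.39 to 0.018 for Tcf3 and from -1.99 to 0.29 for Id4. For these results the cause was not tested, apart from the length used and the samples left out. Id4 and Neurog3 had few counts, at most 116 and 47 in a library.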
